A study of Macaca mulatta with 2 samples.

Results

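Fibroblasts and the interstitial stroma of the testis were followed through 43 genes in cultured Sertoli cells of rhesus macaques (Macaca mulatta). The genes were taken by name from a list of stromal markers without the collagens, and every probe carrying one of the 43 symbols was read. They had 60 of the 41000 probes on the arrays, and 39 of the 43 genes passed the filter on dim probes, among 19611 genes tested in all (probes without a symbol each counted as a gene). The pubertal cultures were primary Sertoli cell cultures from testes of males aged 18 to 22 months, in which puberty had been induced with gonadotropin-releasing hormone (GnRH), given at 0.15 µg/min in 2 min pulses every 3 h over 4 to 5 weeks. The infant cultures were primary Sertoli cell cultures from testes of males younger than 3 months, for which the labels give no GnRH. All cultures had testosterone (100 nM) and FSH (5 ng/ml) for 24 h, so the comparison is between ages under the same hormones, and no culture without hormones was analysed here. The GnRH treatment and the age differed together and cannot be told apart. Each of the 2 arrays compared 1 pubertal with 1 infant culture, from different animals by their labels. The dyes were swapped: array 1 had pubertal RNA under the red dye Cy5 against infant RNA under the green dye Cy3, and on array 2 pubertal RNA was green and infant RNA red.

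Stromal fibroblasts lie outside the seminiferous tubules, where Sertoli cells sit inside the basement membrane. They answer platelet-derived growth factor through its alpha and beta receptors, and they lay down a matrix of fibrils whose width and spacing are set by small leucine-rich proteoglycans and whose stretch comes from elastic fibres. Matricellular proteins are secreted into that matrix but act on adhesion and signalling rather than as scaffold, and many cell types can make them. Some transcription factors, among them TCF21 and NR2F2, mark the interstitial precursors of the fetal testis in mice.

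The arrays were built for human genes, so macaque RNA was measured with human 60-base probes. The probes below carry the 2 patterns that the values show. The first 4 belong to genes that were lower in the pubertal culture on both arrays, and the last 3 to genes that were lower on array 1 and higher on array 2. Letters are lower case throughout and no base is singled out. Coordinates are those of human build hg17 in the file headers, and these letters have an open reading frame in at least 1 frame.

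NR2F2, chr15:94678806-94681609, plus strand: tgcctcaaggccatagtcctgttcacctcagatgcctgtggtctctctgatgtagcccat
TCF21, chr6:134252634-134254558, plus strand: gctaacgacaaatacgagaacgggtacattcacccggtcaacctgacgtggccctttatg
FBLN1, chr22:44259914-44263531, plus strand: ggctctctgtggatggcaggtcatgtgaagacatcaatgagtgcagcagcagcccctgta
PCOLCE, chr7:99848718-99848777, plus strand: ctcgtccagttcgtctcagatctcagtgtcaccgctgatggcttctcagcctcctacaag
POSTN, chr13:37051161-37051220, minus strand: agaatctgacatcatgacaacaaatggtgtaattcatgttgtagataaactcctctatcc
CYR61, chr1:85760465-85760524, plus strand: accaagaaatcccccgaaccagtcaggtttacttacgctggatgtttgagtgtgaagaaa
FN1, chr2:216060632-216062167, minus strand: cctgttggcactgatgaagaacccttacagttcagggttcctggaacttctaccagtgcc

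The probes of NR2F2, TCF21, FBLN1 and FN1 cover more genome than their 60 bases (2804, 1925, 3618 and 1536 bases), so they span an intron. The POSTN probe held 35.0% G and C and the FBLN1 probe 55.0%. For TCF21, PCOLCE and POSTN the probe shown is the one that stands for the gene in the values that follow. NR2F2, FBLN1, CYR61 and FN1 have other probes too, and their values are given where the probes are compared.

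In the pubertal cultures 18 of the 39 genes, 46.2%, had a lower level than in the infant culture on both arrays, where 21.9% of all genes tested did. Only 3 of the 39, 7.69%, were higher on both, against 23.5% of all genes. Signs were opposite for the remaining 18, 46.2% against 54.6%. Of these, 14 (35.9%, against 23.1% of all genes) were lower on array 1 and higher on array 2, and 4 (10.3%, against 31.5%) ran the other way. For the 39 genes the log2 ratio (pubertal over infant) had a median of -0.79 on array 1 and -0.22 on array 2, and for all genes tested the medians were 0.05 and -0.03. In RNA of a whole culture, fewer cells of a type and less RNA per cell cannot be told apart.

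**Figure D1:**
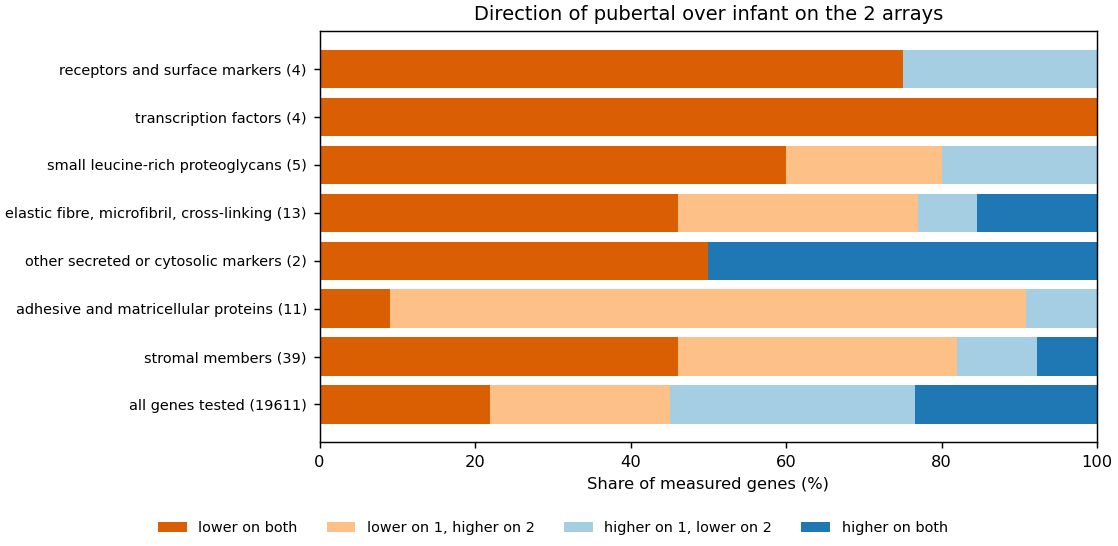
Share of measured genes (horizontal axis, percent) by the sign of pubertal over infant on the 2 arrays, for each role of the stromal genes, all 39 stromal genes and all 19611 genes tested, with the number of genes in parentheses. By sign, 4 of 4 measured transcription factors (TWIST1 with a ratio of -0.0027 on array 1) and 3 of 4 receptors and surface markers were lower on both arrays. Also by sign, 9 of 11 adhesive and matricellular genes were lower on array 1 and higher on array 2. Among these, FSTL1 had -0.014 on array 1, and the Cy5 spot of SPARC was saturated on both arrays. For CTGF, TNC, DPT and FN1 the sign on 1 array turned with median centring in place of loess.

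At least 2-fold lower on both arrays were MFAP4, NR2F2, FBLN1 and PDGFRB, 4 of 39 genes (10.3%), against 0.352% of all genes. None of the 39 was at least 2-fold higher on both, against 0.342% of all genes. On array 1 alone 16 of 39 (41.0%, against 2.97% of all genes) were at least 2-fold lower, and on array 2 alone 5 of 39 (12.8%, against 2.37%). Both pubertal intensities lay below both infant ones for 14 of 39 genes (35.9%, against 14.1%), and above them for 1, EFEMP1 (2.56%, against 15.7%). These counts have no test of their own. With median centring in place of loess, which leaves all genes at medians of 0.63 and -0.42, the stromal median was -0.21 on array 1 and -0.52 on array 2, 17 genes were lower on both arrays (43.6%, against 9.75% of all genes under that setting) and 2 at least 2-fold so (against 0.117% of all genes).

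No gene passed the test. With limma and Benjamini-Hochberg adjustment over 19611 genes, 0% of all genes and 0 of the 39 had an adjusted p under 0.05, and the lowest adjusted p among the 39 was 0.956, for FBLN1. At an unadjusted limma p under 0.05 stood 8 of the 39, all lower in pubertal cultures (20.5%, against 1.81% of all genes in that direction), and 794 genes in all (4.05%, either direction). The 2 arrays leave 1 residual degree of freedom, and their number limits the precision of every value.

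**Figure D2:**
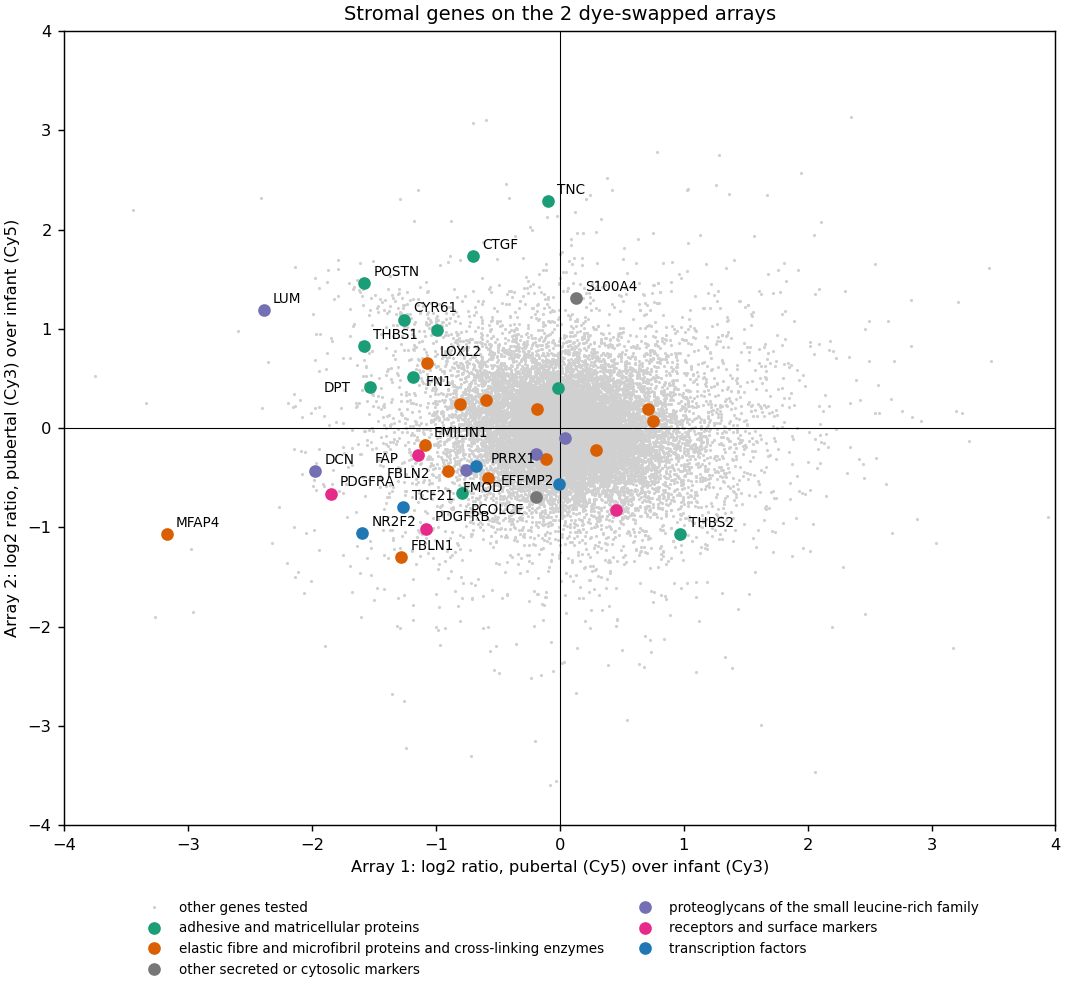
Log2 ratio of pubertal over infant on array 1 (horizontal axis) against array 2 (vertical axis), 1 point per gene, with the 39 measured stromal genes coloured by role and the others in grey (5 genes beyond 4 on either axis are not drawn). Most labelled stromal genes lie in the lower left, from MFAP4 at -3.17 and -1.07 to EFEMP2 at -0.58 and -0.50, or in the upper left, from LUM at -2.39 and 1.19 to TNC at -0.09 and 2.29. THBS2 lies in the lower right, at 0.97 and -1.07, and S100A4 in the upper right, at 0.13 and 1.31.

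Across all genes the 2 arrays had little in common. Across 19611 genes, which are not independent replicates and share the cultures, Pearson's r between their ratios was -0.07 and Spearman's rho -0.10, and 45.4% of genes had the same sign. Between 60.9% and 74.8% of spots were well above background in a channel, with the Cy5 channel ahead on both arrays, and saturated spots were nearly all in Cy5 (586 for pubertal RNA on array 1 and 428 for infant RNA on array 2). The Sertoli label was checked against 29 markers with a probe: 24 were well above background in all 4 channels, GATA1 in none, and ABP1, SHBG, GDNF and the FSH receptor FSHR in some. The markers were matched by symbol alone, and whether the ABP1 probe measures a Sertoli gene was not checked. Summed levels given here and below leave out genes with a saturated spot except where said, an alternative chosen after seeing the data. The summed normalized intensity of the Sertoli markers, without 5 saturated ones, was 15.57 and 15.29 (log2) in the pubertal cultures of arrays 1 and 2, against 15.54 and 15.33 in the infant cultures. That of the stromal genes without SPARC was 16.31 and 17.09 in pubertal cultures, against 17.13 and 16.84 in infant cultures. Both overlapped, and both sums are carried by their brightest genes.

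Among receptors and surface markers, 3 of 4 genes were lower in the pubertal culture on both arrays, with median ratios of -1.11 and -0.74. PDGFRB, the beta receptor for platelet-derived growth factor, which marks mural and stromal cells, had normalized log2 intensities of 11.53 and 11.96 in the pubertal cultures of arrays 1 and 2, against 12.61 and 12.97 in the infant cultures. Both pubertal values were the lower ones, and the distance was nearly the same on each array. The log2 ratios were -1.08 and -1.01, with a mean of -1.05 ± 0.24 (moderated SE, n = 2 arrays), which is 2.07-fold lower, at an adjusted limma p of 0.981.

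PDGFRA, the alpha receptor, carried by interstitial mesenchyme, had 10.22 and 10.59 in the pubertal cultures, against 12.07 and 11.25 in the infant cultures. The groups did not overlap, but the distance on array 1 was the wider by far. Its ratios were -1.85 and -0.66, with a mean of -1.25 ± 0.36 (SE, n = 2). FAP, a surface protease of activated fibroblasts, had 10.01 and 10.30 in the pubertal cultures, against 11.15 and 10.57 in the infant cultures. Its ratios of -1.14 and -0.27 again set the infant culture of array 1 apart. THY1, a surface glycoprotein of fibroblasts and other cells, was the exception with 0.46 on array 1 and -0.83 on array 2.

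Of 4 measured transcription factors, NR2F2, TCF21 and PRRX1 were lower in the pubertal culture on both arrays. The fourth, TWIST1, counts among the 18 genes lower on both arrays by its sign alone, with -0.0027 on array 1. The median ratios of the 4 were -0.97 and -0.68. NR2F2, a nuclear receptor of stromal precursors also called COUP-TFII, had 11.36 and 11.69 in the pubertal cultures, against 12.95 and 12.75 in the infant cultures. The groups stood more than 1 log2 unit apart. Its ratios were -1.60 and -1.06, the mean -1.33 ± 0.27 (SE, n = 2), which is 2.51-fold lower, and the unadjusted limma p was 0.00466 with an adjusted p of 0.981. Its other probe, whose sequence is given above, had -1.49 and -0.71.

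TCF21, a basic helix-loop-helix factor needed for gonad and kidney mesenchyme in mice, had 6.59 and 7.32 in the pubertal cultures, against 7.86 and 8.12 in the infant cultures. Both pubertal values were below both infant values, at ratios of -1.26 and -0.79. PRRX1, a homeobox factor of limb and facial mesenchyme, had 6.21 and 6.60 in the pubertal cultures, against 6.89 and 6.99 in the infant cultures. Both genes are dim, and an offset added to the intensities shrinks such ratios. Without the offset the mean was -1.51 in place of -1.03 for TCF21 and -1.14 in place of -0.53 for PRRX1. With the scanner software's processed signals, which differ in background correction and normalization too, the means were -1.70 and -1.67. TWIST1, another basic helix-loop-helix factor of mesenchyme, had -0.56 on array 2. MEOX2, a homeobox factor of mesoderm, was not well above background in any channel and has no ratio here.

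**Figure D3:**
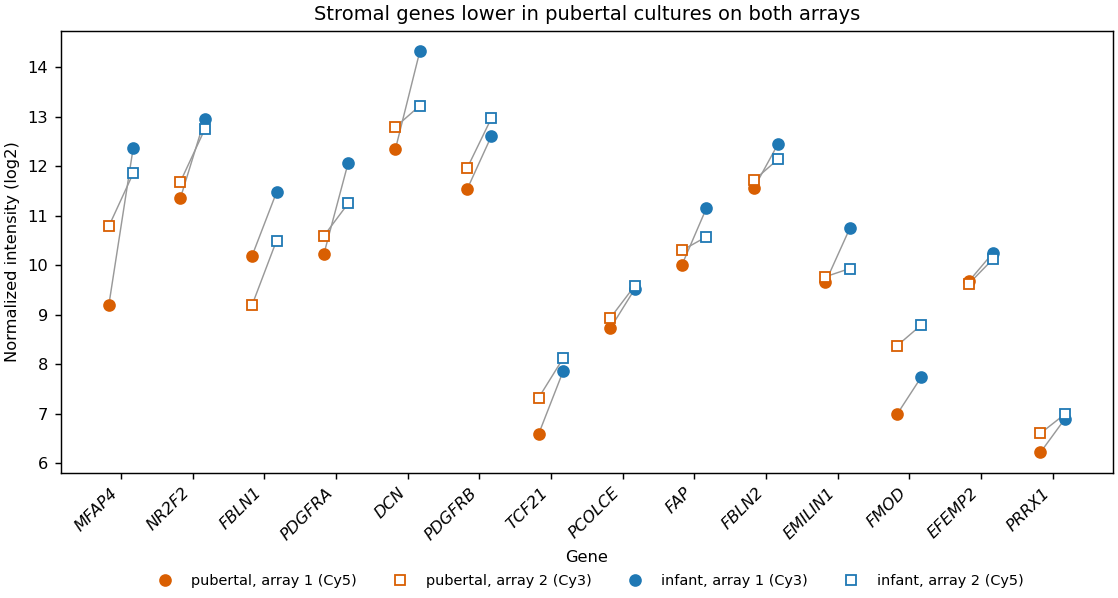
Normalized log2 intensity (vertical axis) of the named stromal genes that were lower in the pubertal culture on both arrays, with pubertal values left of infant values for each gene, array 1 filled, array 2 open, and a line joining the cultures of 1 array. Every line runs upward to the infant culture, steeply on both arrays for MFAP4, NR2F2, FBLN1 and PDGFRB, and mainly on array 1 for DCN, PDGFRA, FAP and EMILIN1. For MFAP4 the line of array 1 is the steepest drawn.

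Of the 8 small leucine-rich proteoglycans, which bind collagen fibrils, 5 were measured. DCN, decorin, which limits fibril width and binds TGF-beta, had 12.35 and 12.79 in the pubertal cultures, against 14.32 and 13.22 in the infant cultures. The pubertal cultures were the lower ones, by -1.97 on array 1 and -0.43 on array 2, and the mean of -1.20 ± 0.42 (SE, n = 2) rests largely on array 1. FMOD, fibromodulin, a collagen-binding relative, had 6.99 and 8.37 in the pubertal cultures, against 7.74 and 8.79 in the infant cultures. It was lower on each array, by -0.76 and -0.42, but the groups overlapped, since array 2 read higher for both ages. PRELP, which anchors collagen to basement membranes, differed little, by -0.19 and -0.26, and so did BGN, biglycan, by 0.05 and -0.09.

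LUM, lumican, the corneal and stromal relative of decorin, behaved unlike DCN. It had 6.46 and 7.36 in the pubertal cultures, against 8.85 and 6.16 in the infant cultures. The infant culture was the higher one on array 1 and the lower one on array 2, at ratios of -2.39 and 1.19. OGN (osteoglycin) and OMD (osteomodulin) were not well above background in any channel, and ASPN (asporin) was so on array 2 only, so these 3 proteoglycans have no ratio here.

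All 13 genes of elastic fibres, microfibrils and their cross-linking enzymes were measured, and 6 were lower on both arrays, 2 higher on both and 5 of opposite sign, with median ratios of -0.60 and -0.17. MFAP4, a microfibril-associated glycoprotein that binds elastin and fibrillin, had 9.19 and 10.78 in the pubertal cultures, against 12.37 and 11.85 in the infant cultures. The groups did not overlap. Its ratios were -3.17 and -1.07, and the mean of -2.12 ± 0.53 (SE, n = 2), or 4.35-fold lower, had the greatest size of any of the 39, at an unadjusted limma p of 0.011 and an adjusted p of 0.981.

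FBLN1, fibulin-1, a calcium-binding protein of elastic fibres and basement membranes, had 10.19 and 9.20 in the pubertal cultures, against 11.47 and 10.49 in the infant cultures. Its ratios of -1.28 and -1.30 were the closest pair among the genes that were 2-fold lower on both arrays, and the mean was -1.29 ± 0.24 (SE, n = 2), 2.44-fold lower. FBLN1 is spliced into several variants, and its 3 probes did not give 1 value. The probe used above, which the files annotate to variant D, differed most. The probe whose sequence is given above, which the files match to several variants, had -0.90 and -0.08, and the probe annotated to variant B had 0.01 and -0.21. These other probes are dim, with log2 intensities between 6.84 and 7.77 and between 6.80 and 7.01, and the offset makes such ratios smaller. The authors' deposited table gives -1.52 and -0.46 for the probe matched to several variants. Whether the variants differ was not tested.

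FBLN2, a fibulin relative, had 11.55 and 11.71 in the pubertal cultures, against 12.45 and 12.14 in the infant cultures. EFEMP2, also called fibulin-4 and needed for elastic fibre assembly, had 9.67 and 9.62 in the pubertal cultures, against 10.25 and 10.12 in the infant cultures. EMILIN1, a glycoprotein at the surface of elastic fibres, had 9.65 and 9.76 in the pubertal cultures, against 10.74 and 9.93 in the infant cultures. In all 3 genes both pubertal values lay below both infant values, with mean ratios of -0.66, -0.54 and -0.63. MFAP5, a second microfibril protein, was lower by -0.11 and -0.31, but its probe was not well above background for the infant culture of array 1.

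The elastic fibre core and the cross-linking enzymes had mixed signs. FBN1, the fibrillin that forms microfibrils, had ratios of -0.19 and 0.19, and ELN, elastin itself, had 0.29 and -0.22. Another ELN probe had -0.07 and -0.33, and a further one -0.14 and -0.09, lower on both arrays. LOX, a lysyl oxidase that cross-links collagen and elastin, had 0.75 on array 1 and 0.07 on array 2, where its 10 spots ran between -0.027 and 0.19, whereas its relatives LOXL1 and LOXL2 had -0.60 and 0.29, and -1.07 and 0.66. FBLN5, a fibulin that tethers elastin to cells, had -0.80 and 0.25.

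EFEMP1, fibulin-3, was the single stromal gene with both pubertal values above both infant values. It had 13.22 and 12.63 in the pubertal cultures, against 12.51 and 12.44 in the infant cultures. The mean ratio was 0.45.

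Among the 11 adhesive and matricellular genes, 9 were lower in the pubertal culture on array 1 and higher on array 2, against 23.1% of all genes. Another 1 was lower on both. The median ratio was -0.99 on array 1 and 0.83 on array 2. In each of these 9 the culture labelled with Cy3 gave the higher level on both arrays, so dye and the cultures that happened to be paired cannot be told apart. SPARC is 1 of the 9 and supplies the median of array 1, but its Cy5 spot was saturated on both arrays. With median centring in place of loess the sign turned for CTGF and TNC on array 1 and for DPT and FN1 on array 2.

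POSTN, periostin, a protein of matrix under tension, had 6.38 and 8.30 in the pubertal cultures, against 7.96 and 6.84 in the infant cultures. THBS1, thrombospondin-1, an adhesive protein that activates latent TGF-beta, had 11.97 and 14.03 in the pubertal cultures, against 13.56 and 13.20 in the infant cultures. CYR61 and CTGF, now called CCN1 and CCN2, are matricellular targets of YAP and serum signalling. CYR61 had 12.29 and 14.79 in the pubertal cultures, against 13.54 and 13.70 in the infant cultures, and CTGF had 10.48 and 12.53 in the pubertal cultures, against 11.19 and 10.80 in the infant cultures. In these 4 genes the pubertal culture of array 2 read highest and that of array 1 lowest, with both infant cultures between them.

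FN1, fibronectin, the adhesive glycoprotein on which cells spread, had 10.43 and 12.38 in the pubertal cultures, against 11.62 and 11.86 in the infant cultures. The same order held: the pubertal cultures were the 2 extremes. DPT, dermatopontin, a small matrix protein that binds decorin, had 10.53 and 10.79 in the pubertal cultures, against 12.06 and 10.37 in the infant cultures, so there the infant cultures were the extremes. SPARC, osteonectin, had 14.95 and 16.17 in the pubertal cultures, against 15.94 and 15.19 in the infant cultures, but its Cy5 spot was saturated on both arrays. LUM, POSTN and CYR61 were at least 2-fold lower on array 1 and at least 2-fold higher on array 2, 3 of 39 genes (7.69%) against 0.546% of all genes. With median centring CYR61 had -0.09 and 0.26 and was no longer among them, THBS1 had -0.43 and 0.03, and LOXL2 had -0.31 and 0.13.

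TNC, tenascin-C, a matricellular protein of developing and injured stroma, owed its mean ratio to array 2. It had 9.26 and 11.60 in the pubertal cultures, against 9.36 and 9.31 in the infant cultures. Only the pubertal culture of array 2 stood apart, and it was labelled with Cy3, so dye and culture cannot be told apart here either. The mean ratio of 1.1 ± 0.59 (SE, n = 2) is thus the average of -0.09 and 2.29, with an unadjusted limma p of 0.125. With median centring in place of loess the ratios were 0.64 and 1.69, higher on both arrays. FSTL1, a secreted follistatin relative, had -0.01 and 0.40.

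**Figure D4:**
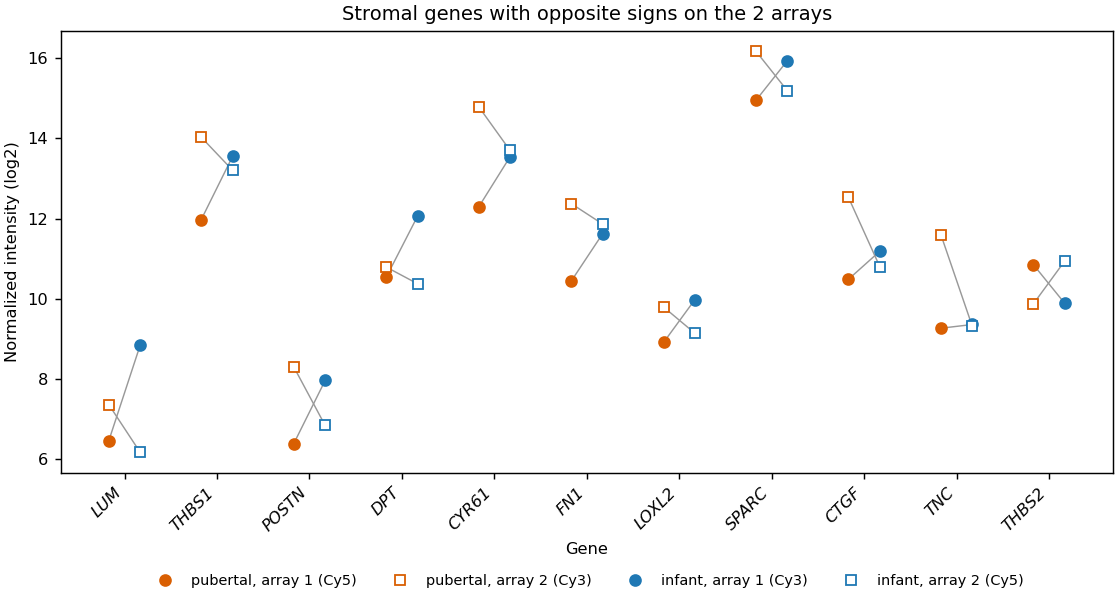
Normalized log2 intensity (vertical axis) of stromal genes whose ratio had opposite signs on the arrays, with pubertal values left of infant values for each gene, array 1 filled, array 2 open, and a line joining the cultures of 1 array. The filled lines run up and the open lines down towards the infant culture in all genes drawn but THBS2, where they cross the other way.

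The 2 remaining matricellular genes took other courses. THBS2, the thrombospondin of dermal and stromal fibroblasts, had 10.85 and 9.87 in the pubertal cultures, against 9.88 and 10.94 in the infant cultures. Its ratios of 0.97 and -1.07 are the reverse of those of THBS1. PCOLCE, which helps cut the C-terminal propeptide from procollagen, had 8.73 and 8.93 in the pubertal cultures, against 9.52 and 9.58 in the infant cultures. The groups did not overlap, and its ratios of -0.79 and -0.65 gave a mean of -0.72 ± 0.24 (SE, n = 2) at an unadjusted limma p of 0.0314.

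Of the other markers, S100A4, a calcium-binding protein also called FSP1 and found in leukocytes as well, had 7.83 and 9.61 in the pubertal cultures, against 7.69 and 8.30 in the infant cultures. It was higher on both arrays, by 0.13 and 1.31, but the groups overlapped. GREM1, a secreted BMP antagonist, was lower on both, by -0.19 and -0.70, although its probe was not well above background for the infant culture of array 1.

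Several genes had more than 1 probe or many spots of 1 probe, which shows how far a ratio was set by the spot. FN1 was spotted 10 times on each array, and its log2 ratio was -1.18 ± 0.08 on array 1 and 0.51 ± 0.08 on array 2 (SD over spots). LOXL2 had -1.07 ± 0.07 and 0.66 ± 0.09 over 10 spots each, and a second THBS1 probe had -1.50 ± 0.08 over 6 spots and 0.91 ± 0.08 over 9. Every spot of these 3 genes had the sign of its array's mean. LOX had 0.75 ± 0.09 and 0.07 ± 0.07 over 10 spots each, and its spots on array 2 lay on both sides of 0. Spots of 1 array share their RNA and dye, so this spread covers the spot and not the animals.

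**Figure D5:**
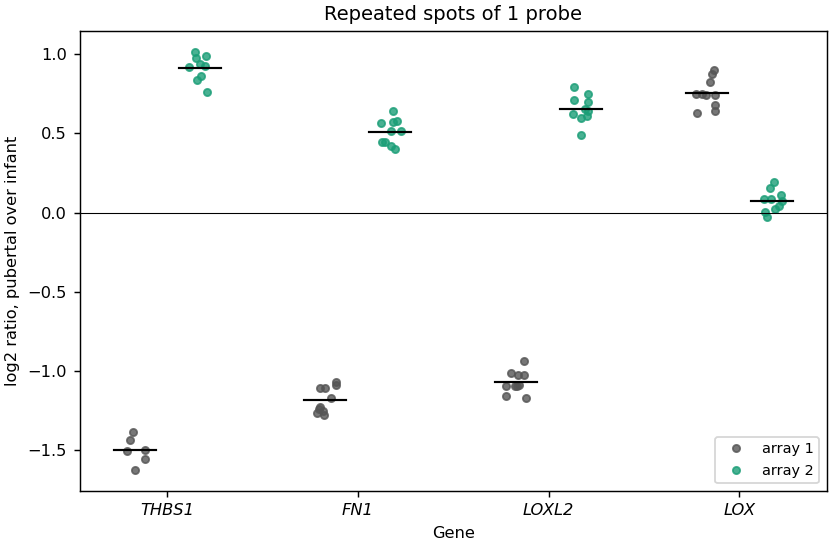
Log2 ratio of pubertal over infant (vertical axis) at each repeated spot of 1 probe for THBS1, FN1, LOXL2 and LOX, with array 1 in grey left of array 2 in green and the mean as a bar. No spot of array 1 overlaps one of array 2 in any of the 4 genes, and array 1 lies below 0 and array 2 above 0 for the first 3.

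The probes of CYR61, of FN1 and of DPT each gave 1 pattern of signs. The CYR61 probe shown above had -1.43 and 1.26, and another had -1.23 and 1.26, beside -1.25 and 1.09 for the one that stands for the gene. The FN1 probe shown above had -1.63 and 0.67. A second DPT probe had -1.76 and 0.56. A second THBS2 probe, whose listed coordinates are shorter than the probe, had 0.15 and -1.03. For PDGFRA, a probe to an expressed sequence tag on the opposite strand had -0.10 and -0.35. That probe is dim, with log2 intensities between 6.31 and 6.66, and it passed the filter through the infant channels alone, which favours a lower pubertal level.

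The authors' deposited table lists 4848 of the 41000 probes, 11.8%, and among them were 33 of the 60 stromal probes (55.0%), covering 24 genes. Its log2 ratios, on the pubertal-over-infant scale, keep the signs above for the named genes it lists and are larger for the dim genes. LUM is at -3.52 and 3.20 in the authors' deposited table, and POSTN at -2.89 and 2.39. PRRX1 is at -2.26 and -1.10 in the authors' deposited table, and TCF21 at -2.18 with an empty cell for array 2. Bright genes differ little: the authors' deposited table gives -1.14 and -1.07 for PDGFRB, -1.75 and -1.06 for NR2F2, and -3.20 and -1.19 for MFAP4.

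The same arrays held other genes of these pathways outside the 43. Of 16 genes for PDGF and TGF-beta ligands, TGF-beta receptors and latent TGF-beta binding proteins, all measured, 5 were lower on both arrays, 4 higher on both and 7 of opposite sign, with median ratios of -0.083 and -0.0047. The 4 with the smallest p were TGFBR2, the signalling type II receptor, at -0.91 and -0.62; TGFBR3, the co-receptor betaglycan, at -1.16 and -0.12; LTBP4, which stores TGF-beta in matrix, at -0.24 and -0.68; and TGFBI, a TGF-beta-induced adhesion protein, at 0.40 and 0.85.

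Of 49 other matrix genes of stroma, 38 were measured, and 12 were lower on both arrays, 9 higher on both and 17 of opposite sign, with median ratios of -0.22 and 0.05. GAS1, a surface protein that binds hedgehog ligands, had 0.99 and 0.90. CD44, the hyaluronan receptor, had -0.95 and -0.83, and HAS3, a hyaluronan synthase, had -0.73 and -0.89. PCOLCE2, the relative of PCOLCE, had 1.05 and 0.59, opposite in sign to PCOLCE on both arrays. Neither list held a gene that differed 2-fold or more, with 1 sign, on each array, where 0.352% of all genes did so as lower and 0.342% as higher.

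Markers of other testis cells differed between the cultures too, and their part in the values of the stromal genes was not tested. Of 13 peritubular myoid and smooth muscle markers, all above background in all 4 channels, 3 were lower and 6 higher on both arrays, and their summed level without 1 saturated gene was 15.20 and 15.97 in pubertal cultures, against 14.94 and 16.05 in infant cultures. Their mean ratios ran between -1.16 and 0.75. DES, the muscle intermediate filament desmin, had -1.07 and -1.26, while ACTA2, smooth muscle actin, had 0.64 and 0.51, and ACTG2, another smooth muscle actin, had 0.70 and 0.75. Of 8 measured endothelial and pericyte markers 3 were lower and 3 higher on both, with summed levels of 12.54 and 13.38 in pubertal cultures, against 12.21 and 13.55 in infant cultures, and RGS5, a pericyte regulator of G-protein signalling, had -1.89 and -2.20, while CLDN5, an endothelial claudin, had 0.76 and 0.50.

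Of 9 measured Leydig cell markers, 3 were lower on both arrays and 1 was higher on both. HSD3B1, HSD3B2, CYP11A1 and STAR were saturated in the pubertal channel of array 1. Without these 4 the summed level was 13.149 and 11.78 in pubertal cultures, against 14.45 and 13.146 in infant cultures, nearly without overlap. With all 9 it was 17.05 and 17.30 in pubertal cultures, against 17.01 and 16.44 in infant cultures. The direction of the summed level thus depends on these 4 genes. LHCGR, the luteinizing hormone receptor, was not well above background in any channel. NR0B1, a nuclear receptor of steroid-making cells, had -2.01 and -1.55, CYP17A1, the androgen-making enzyme, had -2.12 and -1.45, and DLK1, a marker of fetal Leydig cells and their precursors, had -1.32 and -1.99. CYP11A1, the side-chain cleavage enzyme, was the 1 higher on both, at 0.68 and 0.27. The steroid enzyme HSD3B2 had -0.43 and 2.46, HSD17B3 had 1.86 and -0.55, and the cholesterol carrier STAR had 1.14 and -1.20.

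Of 14 germ cell markers, 9 were well above background in all 4 channels. Of the 14, 13 were higher in the pubertal culture on both arrays, against 23.5% of all genes, and 1 was of opposite sign. SYCP3, MAGEA4, GFRA1, KIT and SOHLH1, all among the 13, passed the filter through the pubertal channels alone, which favours a higher pubertal level. The summed level of the 14 was 11.99 and 11.78 in pubertal cultures, against 11.03 and 11.02 in infant cultures, without overlap. The markers at least 2-fold higher on both were PRAME at 1.34 and 1.61, STK31 at 2.06 and 1.35, and DAZL at 1.18 and 1.65. Of 8 measured macrophage and leukocyte markers 1 was lower and 4 higher on both, with summed levels of 10.70 and 10.24 in pubertal cultures, against 9.91 and 10.18 in infant cultures. Among those 4, ITGB2 and LAPTM5 also passed the filter through the pubertal channels alone. Of 26 measured Sertoli markers 6 were lower and 8 higher on both. GDNF, among the 8, passed the filter through the pubertal channels alone, and FSHR, among the 6, through the infant channels alone. CST9L, a cystatin-like gene, was at 4.85 and 4.58, CLDN11, a tight-junction claudin, at 1.45 and 1.28, and PTGDS, a prostaglandin synthase, at -1.68 and -1.65.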

How the data were processed

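RNA of 2 pubertal and 2 infant Sertoli cell cultures was compared on 2 two-colour arrays with swapped dyes, both on 1 slide in 1 scan, so no batch could be tested. The labels name both arrays as biological replicates. Scanner output was extracted with Agilent Feature Extraction (9.5.1.1 in the submitters' processing notes), and the deposited files hold mean spot and local background intensity per channel, processed intensities, a log10 ratio of Cy5 over Cy3, and flags for background, saturation and outliers. A separate deposited table gives the authors' log2 ratios, and its normalization and empty cells (342 and 355) are not explained in the sources used here. Against the scanner's ratios its columns had slopes of 1.01 and 1.00 once turned to pubertal over infant, and its column medians were -0.37 and 0.12, so its centring is not known.

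Mean intensities were corrected by normexp (offset 50) and normalized by loess within each array in limma 3.58.1 under R 4.3.3. Control spots had weight 0, outlier spots were left out (122 and 108), and saturated spots were kept. The offset makes ratios of dim probes smaller. Spots of a probe were averaged and ratios set as pubertal over infant from the labels' dyes. A probe was kept if well above background on both arrays for pubertal RNA, or on both for infant RNA, which left out 15230 probes. The probe with the highest mean intensity stood for a gene. Levels are log2 intensities after loess and Aquantile, the scaling between arrays. Differences were tested with lmFit and eBayes (two-sided, 1 residual and 3.83 prior degrees of freedom), with Benjamini-Hochberg adjustment. The fit was tested on simulated data. The p-values and every SE given are moderated. They combine a gene's spread between these 2 arrays with a variance prior fitted over all genes tested.

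The genes and lists were chosen with earlier results of these data known. Named were genes with a mean log2 ratio of at least 1 in size, of at least 0.5 with 1 sign, or of at least 1 on 1 array with the opposite sign on the other, which gave 25. SPARC, EFEMP1, other genes with smaller ratios and markers under 2-fold were added after their values were seen. Of the 43 symbols, 40 stood in the macaque RefSeq gene table (assembly T2T-MMU8v2.0). Alternatives were other background corrections, normalizations, filters, probe rules and priors, saturated genes left out, and single arrays.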

Additional observations from a re-analysis of the deposited data

How the results depend on the processing

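No stromal gene passed the adjusted threshold under any alternative; the lowest adjusted p of limma over the alternatives lay between 0.254 (with an intensity trend in the variance prior) and 1. Of all genes, 1 was called with offset 0, 1 with median centring and 1 with the intensity trend. Between 16 and 23 stromal genes (the 23 being of 53 probes, with every probe counted) were lower on both arrays. These were 43.2% to 48.7% of those measured, against 9.75% to 23.2% of all genes. Median centring in place of loess left all genes at medians of 0.63 and -0.42 and moved the stromal median on array 1 to -0.21. It left 2 stromal genes at least 2-fold lower on both arrays, against 0.117% of all genes. Under it the sign turned on array 2 for DPT (-0.19) and FN1 (-0.18), and on array 1 for CTGF (0.25) and TNC (0.64). For these genes the opposite signs thus depend on the normalization. At least 2-fold lower on array 1 and higher on array 2 were 2 genes in place of 3, against 0.0459% of all genes in place of 0.546%. On a single array, without replicate 1 or 2, between 22 and 32 stromal genes were lower and between 7 and 17 higher, with no test possible. At least 2-fold lower were 16 on array 1, against 2.97% of all genes, and 5 on array 2, against 2.37%. The mean ratio of TNC was -0.093 without replicate 2 and 2.29 without replicate 1. Of the values of single genes under alternatives, 353 kept their direction and side of the threshold or moved by less than the spread, 7 moved by more and 5 turned. Changes of filter, probe rule or variance prior, and leaving out saturated genes, do not recompute a ratio. They left the ratios of these genes as they were, and those values count among the 353. Values that changed in size count there too, such as PRRX1 at -0.53 and, with the scanner's processed signals, -1.67. Dim genes depend on the offset: signals near background limit what LUM, POSTN, PRRX1 and TCF21 can show.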
